A study of Mus musculus with 82 samples.

Results

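The 10 genes described here, Axin2, Nkd1, Dkk1, Notum, Lef1, Tcf7, Sp5, Sp8, Lgr5 and Rspo3, are targets of canonical Wnt signalling, feedback regulators of it, or both. They were chosen by name, from what is known of the pathway, out of 21829 protein-coding genes of the mouse annotation (GENCODE vM21, build mm10), and all 10 could be measured. For each gene, a window was drawn from 10 kb before the gene to 10 kb after it, and the share of the window covered by called regions was taken in each list. A promoter region was a called region within 1 kb of a start of one of the gene's protein-coding transcripts. The samples were wild-type (wt) stembryos, aggregates of mouse embryonic stem (mES) cells of the EmbryoMax 129/SVEV line that elongate in culture, pooled and collected 48, 72, 84, 96, 108, 120, 132, 144 or 168 h after aggregation. From 48 to 72 h the cultures received a pulse of CHIR99021, an inhibitor of the kinase GSK-3 that switches on canonical Wnt signalling. The 48 h samples thus precede the pulse and every later sample had received it. The mES medium before aggregation also held this inhibitor, no wt library without the pulse was analysed here, and from 108 h only elongating stembryos were collected. Time, the pulse and the choice of stembryos therefore cannot be told apart.

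Canonical Wnt ligands stop the destruction of beta-catenin, which then enters the nucleus and works with DNA-binding proteins of the TCF/LEF family to switch genes on. Several of these genes encode proteins that damp the signal again, at the receptor, in the cytoplasm or outside the cell, while others encode the transcription factors that carry it on. In the mouse embryo the pathway acts in the primitive streak and the tailbud, where it keeps the posterior body axis growing.

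In mm10 coordinates, the transcription factor genes are Lef1 (chr3:131110471-131224356, plus strand), Tcf7 (chr11:52252371-52283014, minus strand), Sp5 (chr2:70474923-70477729, plus strand) and Sp8 (chr12:118846329-118852576, plus strand). The intracellular inhibitors are Axin2 (chr11:108920349-108950783, plus strand) and Nkd1 (chr8:88521354-88594884, plus strand). The secreted inhibitors are Dkk1 (chr19:30545863-30549665, minus strand) and Notum (chr11:120653788-120661175, minus strand). Lgr5 (chr10:115450311-115587780, minus strand) and Rspo3 (chr10:29452416-29535867, minus strand) belong to the R-spondin system. The windows of Lef1, Tcf7, Notum and Lgr5 hold parts of Hadh, Skp1a, Myadml2 and A930009A15Rik, whose regions cannot be told apart from theirs by position.

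In all, 61 wt lists of called regions covered 8 assays. H3K27ac, a histone mark of active promoters and enhancers, had 13 lists, H3K27me3, a mark laid down by Polycomb, had 6, total RNA polymerase II (PolII) had 8 and its elongating form (pSer2PolII) had 5. The cohesin loader NIPBL had 8 lists, the cohesin subunit RAD21 had 16, the insulator protein CTCF had 2 and the transcription factor CDX2 had 3. The lists hold no total read counts, and the read totals that the study states for its libraries were not used here. Lists held between 147 and 71196 regions. Only H3K27ac and RAD21 were measured at 48 h. Most stages had 1 library per assay. By the study's methods replicates were pools of stembryos, of which some, not named, came from different cultures, so p-values may measure only the spread between pools. In these pooled samples, fewer cells with a mark and less of the mark per cell cannot be told apart. Of 8 mES cell and epiblast markers, 8 had an H3K27ac promoter region at 48 h and again 8 at 72 h, but 3 at 144 h. Of 6 primitive streak and nascent mesoderm markers, 4 had one at 48 h, 5 at 72 h and 1 at 144 h. Of 4 posterior axis markers, among them Cdx2 and Hoxb1, 0 had one at 48 h, 4 at 72 h and 3 at 144 h. Across all genes 61.6, 63.4 and 51.8% had one at these stages, and the 144 h list was the shortest of H3K27ac.

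Promoter sequences of the members are shown first, since TCF/LEF factors bind a short motif at many Wnt targets. The sequences are RefSeq entries on GRCm38 (mm10), 250 bases before to 50 bases after a start, 5′ to 3′ on the gene's strand. Entries were found for 7 of the 10 genes, with 13 starts, and Notum, Lgr5 and Rspo3 were without one. Matches to CTTTGAT or CTTTGTT on either strand are in capitals. The Sp5 promoter (chr2:70474673-70474972, plus strand) held 2 matches, starting 222 and 104 bases before the start. The Dkk1 promoter (chr19:30549447-30549746, minus strand) held 1 match, 98 bases before it. The Axin2 promoter (chr11:108920099-108920398, plus strand) held none in this window and is shown for contrast.
Sp5 promoter: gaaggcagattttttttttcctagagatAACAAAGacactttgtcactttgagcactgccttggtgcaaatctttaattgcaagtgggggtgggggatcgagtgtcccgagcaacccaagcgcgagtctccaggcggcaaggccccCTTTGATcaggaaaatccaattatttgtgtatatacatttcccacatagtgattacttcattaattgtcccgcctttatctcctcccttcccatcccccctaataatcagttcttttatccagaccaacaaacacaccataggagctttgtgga
Dkk1 promoter: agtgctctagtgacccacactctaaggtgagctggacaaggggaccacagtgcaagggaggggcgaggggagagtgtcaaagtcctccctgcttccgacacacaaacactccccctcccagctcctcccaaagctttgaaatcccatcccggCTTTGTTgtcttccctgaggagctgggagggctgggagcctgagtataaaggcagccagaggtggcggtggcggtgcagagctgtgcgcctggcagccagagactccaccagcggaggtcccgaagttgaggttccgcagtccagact
Axin2 promoter: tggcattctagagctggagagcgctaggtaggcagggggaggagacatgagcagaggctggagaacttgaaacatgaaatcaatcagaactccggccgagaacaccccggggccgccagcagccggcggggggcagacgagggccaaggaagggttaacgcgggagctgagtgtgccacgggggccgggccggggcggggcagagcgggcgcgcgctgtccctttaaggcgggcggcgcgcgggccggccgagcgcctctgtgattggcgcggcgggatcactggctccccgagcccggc
These letters occurred in 2 of the 13 member promoters (15.4%) and in 3064 of 32817 listed promoters of the same length (9.34%). A match describes letters and was not tested as a binding site.

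H3K27ac at 48 and 72 h compared the genes before and after the pulse. It was present at 6 member promoters in the 48 h list, where 61.6% of all genes had a promoter region, and at 9 in the 72 h list, where 63.4% did. The 3 gained were Sp5, Lgr5 and Rspo3, 0 were lost, and Dkk1 had no promoter region at either stage. Across all genes 4.77% gained and 2.98% lost a promoter region, and of promoters without a region at 48 h 12.4% gained one. These stages had 1 library each, so the differences between them have no replicate check and no test.

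Of the intracellular inhibitors, Axin2 encodes the scaffold of the complex that destroys beta-catenin, and is the classical readout of the pathway. The H3K27ac summit at its promoter held 62 fragments at 48 h and 195 at 72 h. Relative to the lowest background of each list, the measure called promoter height from here on, this was 14.4 and 62.8, or 4.35-fold higher (95% interval 3.26 to 5.89, counting error only). Axin2 thus stood above 55.1% of called promoters at 48 h and above 99.0% at 72 h. The median ratio over all promoters with a summit at both stages was 1.62, so Axin2 stood 2.68-fold beyond that shift. Nkd1, which binds Dishevelled and damps the signal there, had 24 and then 75 fragments, a height ratio of 4.33 (2.70 to 7.17), or 2.67-fold beyond the median shift.

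The secreted inhibitors had higher values at 72 h too. Notum encodes an enzyme that removes the lipid from Wnt ligands. Its promoter had 35 fragments at 48 h and 82 at 72 h, a height ratio of 3.24 (2.16 to 4.97). Dkk1, which blocks the co-receptor LRP6, had no promoter region, but its window was covered over 1.05% of its length at 48 h and 4.57% at 72 h.

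The transcription factors had a wide range of ratios. Lef1 and Tcf7 encode partners of beta-catenin on DNA. Lef1 had 79 and 95 fragments at its promoter, a height ratio of 1.66 (1.22 to 2.27) that was 1.03-fold of the median shift. Tcf7 had 74 and 125 fragments, a ratio of 2.34 (1.74 to 3.16), or 1.44-fold of it. Sp5 and Sp8 encode zinc-finger factors of the Sp family that are known Wnt targets in the streak and tailbud. At Sp8 the promoter summit went from 21 to 58 fragments, a ratio of 3.82 (2.29 to 6.63). In the Sp5 window 0% was covered at 48 h and 6.99% at 72 h, where the promoter summit held 86 fragments and reached a height of 27.7. The windows with no H3K27ac region at all at 48 h were those of Sp5 and Rspo3.

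Lgr5 and Rspo3 encode a receptor and a secreted ligand of the R-spondin system, which strengthens Wnt signals. Their new promoter summits at 72 h were low, with 15 fragments for Lgr5 and 21 for Rspo3. The Lgr5 window as a whole was covered over 1.58% at 48 h and 1.04% at 72 h, so its region at the start appeared while its coverage was lower.

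**Figure D1:**
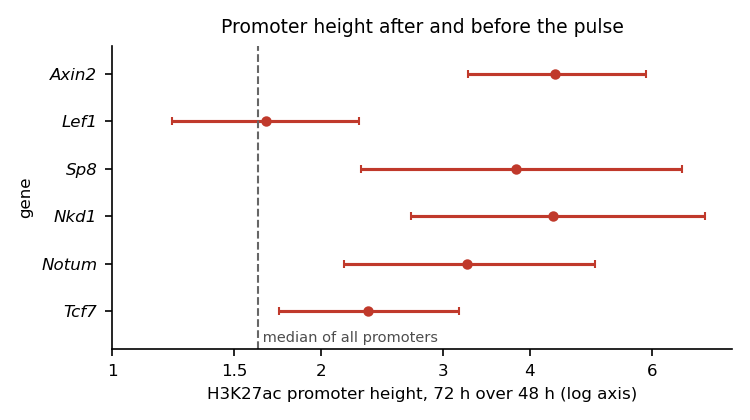
Ratio of H3K27ac promoter height at 72 h to 48 h (log axis) for the 6 genes with a promoter summit in both lists, 1 library per stage. Bars are 95% intervals that cover counting error only, and the dashed line is the median over all such promoters, 1.62. Axin2, Nkd1, Sp8 and Notum lie to the right of the line with their whole interval, as does Tcf7, while the interval of Lef1 spans it.

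Of the 6 genes with a summit in both lists, 3 (Axin2, Nkd1 and Sp8) passed 2-fold beyond the median shift and Notum stood at 2.00, just under it. Among all 12686 such promoters 4.83% passed it upward and 3.48% downward. The median ratio was 3.53 over the 6 genes and 1.62 over all promoters. By window coverage, Sp5, Sp8 and Dkk1 were at least 2-fold higher at 72 h after 1 percentage point was added, where 3.17% of all genes were, and no member was at least 2-fold lower, where 6.11% were. The median log2 difference was 0.77 over the 10 members and -0.04 over all genes. The 48 h list was the longer one, with 67663 regions against 47221, and median coverage over all genes was 2.93% and 2.40%.

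Of 78 other genes of the pathway, 61 had an H3K27ac promoter region at 48 h and 68 at 72 h, with 11 gained and 4 lost. The gains lay mostly among the 19 ligand genes, of which 10 had a region before and 17 after. By coverage 6 of the 78 were at least 2-fold higher and 1 lower. The ligand genes Wnt8a (4.88% to 15.99%) and Wnt3a (0.328% to 5.46%), both active in the primitive streak, gained most.

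RAD21 gave a second comparison of 48 and 72 h, with 1 library at 48 h and 2 at 72 h. The sample labels of the 48 h library and of replicate 2 at 72 h use a cell line entry. That of replicate 1 at 72 h uses a cell type entry. Replicate 1 thus differs from the 48 h library in label set and stage, which cannot be told apart. It was present at 4 member promoters in the 48 h library, as at 15.3% of all genes. In replicate 1 at 72 h, 4 were gained (Lef1, Sp5, Notum and Lgr5) and Sp8 was lost, where 7.03% and 2.91% of all genes did so. In replicate 2 the gain was Sp5 and the loss was Axin2, against 3.11% and 5.28%. Sp5 was thus the member gained in both replicates as called, and no member's coverage differed by 2-fold in either. With lists cut to equal length replicate 2 gained 4 members, lost 0 and had 1 at least 2-fold higher. Across all genes 0.967% were at least 2-fold higher and 1.74% lower in replicate 1, and 0.669% and 4.54% in replicate 2.

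**Figure D2:**
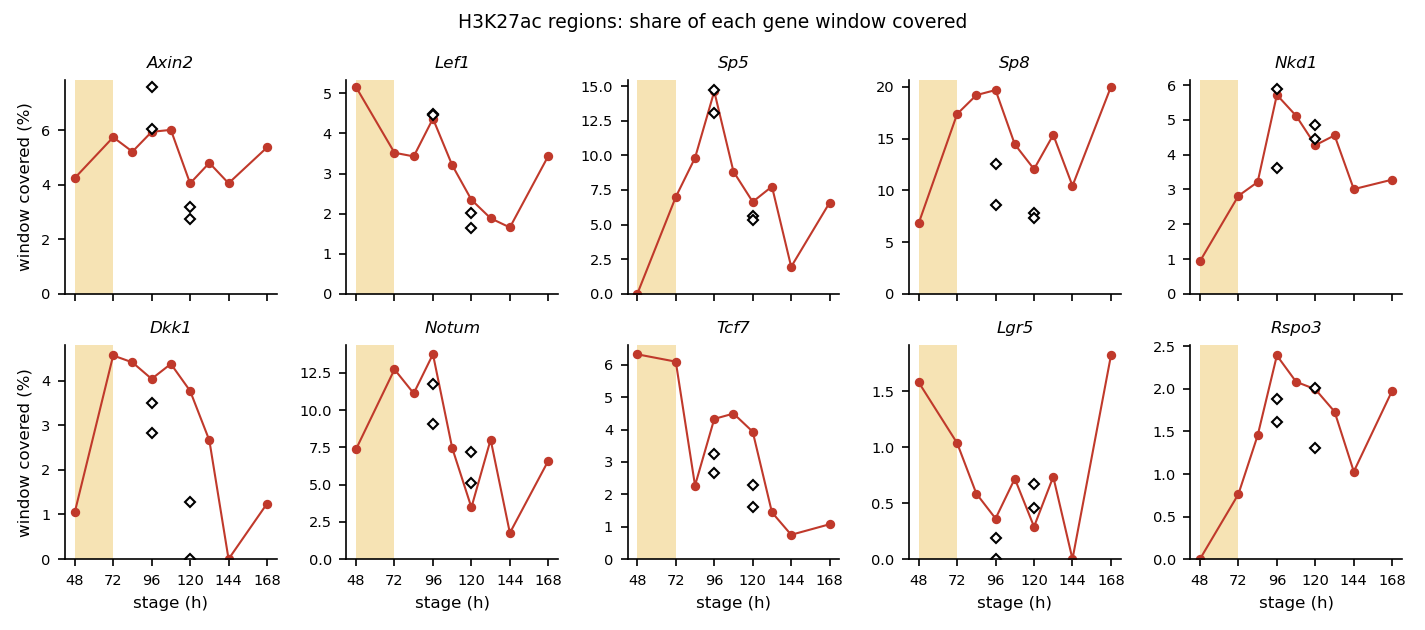
Share of each gene's window covered by H3K27ac regions (%, own scale in each panel) against stage (h). Filled points joined by a line are the 9 stages of the time course, open diamonds are the numbered replicates at 96 and 120 h, and the shaded band is the CHIR99021 pulse. Sp5 starts at 0%, peaks at 14.6% at 96 h and stands at 1.95% at 144 h, while Tcf7 and Lef1 are at or near their highest at 48 h.

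After the pulse the members took different courses. Axin2 kept an H3K27ac promoter region in every list, with heights between 28.6 and 82.3 from 72 h on. In the time course Axin2 was lowest after the pulse at 144 h (32.7) and highest at 168 h (82.3). Such heights are not scaled to the list, and the median promoter height was 12.5 at 144 h and 23.2 at 168 h. Lef1 kept its promoter region too, with its greatest height at 108 h (57.6). The Lef1 window was covered most at 48 h (5.16%) and least at 120 h in replicate 1 (1.63%). Sp8 had the widest coverage of the members at each stage of the time course from 72 h on, with 17.4, 19.2, 19.7, 14.4, 12.04, 15.4, 10.4 and 20.0%.

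Sp5 had a promoter region from 72 to 120 h in the time course and in neither numbered replicate at 120 h nor at any stage after. Its promoter heights were 27.7, 33.3, 33.9, 22.5 and 14.3 at 72, 84, 96, 108 and 120 h. Its local background, the level MACS2 sets from the surrounding kilobases, was up to 18.2 times the lowest of the list at 96 h. A high local background makes regions harder to call, and its part in the Sp5 values was not tested. The window still held regions at 132 h (7.75%), 144 h (1.95%) and 168 h (6.59%), inside and beyond the gene.

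Rspo3 had no H3K27ac region in its window at 48 h and a promoter region in every list after. Its promoter height was 6.76 at 72 h, 26.6 at 96 h and 11.9 at 144 h. Dkk1 had a promoter region in 5 lists between 96 and 132 h, at heights of 4.57 to 9.08. Notum had a height of 26.4 at 72 h and 24.9 at 84 h, of 39.3, 14.7 and 19.6 in the libraries at 96 h, and between 8.32 and 12.3 in the lists from 120 h on. Its greatest height thus rests on 1 of 3 libraries. Nkd1 was highest at 72 h (24.2) and lacked a promoter region in replicate 2 at 96 h. Tcf7 was highest at 72 h (40.3) and between 6.90 and 11.3 from 120 h on. Lgr5 never passed 5.58 and had no H3K27ac promoter region in 6 of 13 lists.

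**Figure D3:**
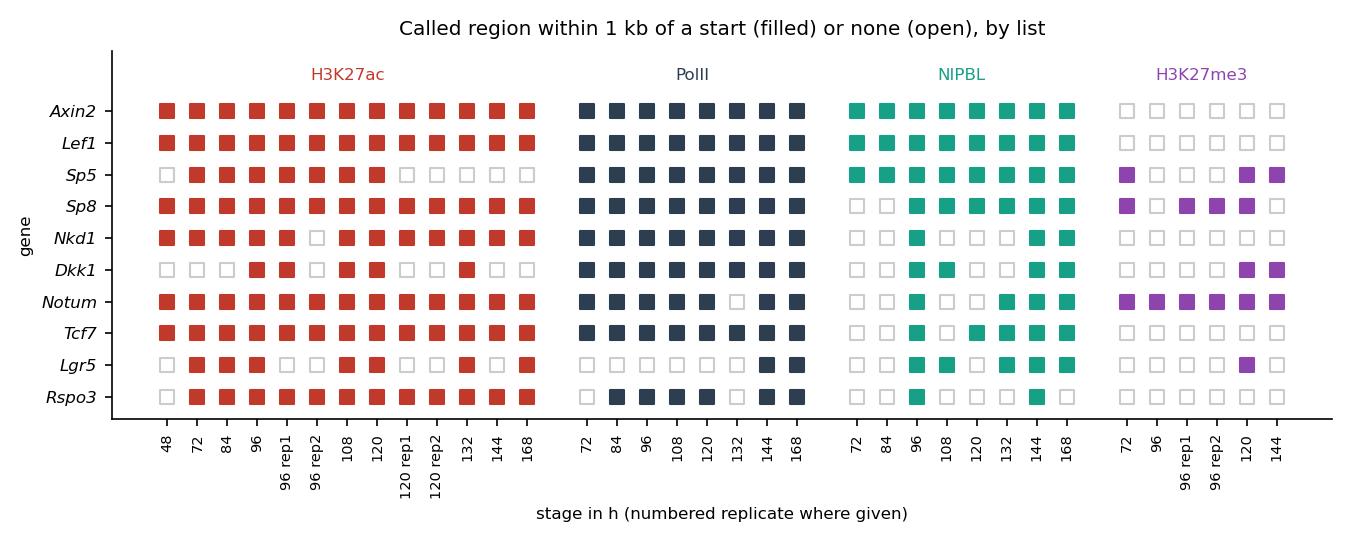
Each square is 1 list, filled where a called region lay within 1 kb of a protein-coding start of the gene, for H3K27ac, PolII, NIPBL and H3K27me3, with stages in h along the bottom. Axin2 and Lef1 are filled in all H3K27ac, PolII and NIPBL lists and open in all H3K27me3 lists, and Notum is filled in all 6 H3K27me3 lists.

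Axin2, Lef1, Sp8, Notum and Tcf7 had an H3K27ac promoter region in all 13 lists, as 44.2% of all genes did. H3K27ac at 96 and 120 h could be tested, with 3 libraries at each stage, given in the order time course, replicate 1, replicate 2. By limma across 17181 genes, 3 of the 10 members were covered less at 120 h and 0 more, where 3.91% of all genes were lower and 0.605% higher (5.23% and 0.611% with the replicate block), and the median difference over all genes was a fall by 0.61 percentage points. Sp5 was covered over 14.6, 14.7 and 13.1% at 96 h and 6.64, 5.59 and 5.33% at 120 h. Its coverage fell by 8.28 points (SE 0.593, limma adjusted p = 0.0137). Lef1 had 4.37, 4.50 and 4.46% against 2.35, 1.63 and 2.03%. It fell by 2.44 points (SE 0.273, limma adjusted p = 0.0205). Axin2 had 5.94, 7.60 and 6.05% against 4.05, 3.20 and 2.76%. It fell by 3.20 points (SE 0.588, limma adjusted p = 0.0459), a call that was lost with the replicate number as a block (adjusted p = 0.0601), while those of Sp5 (adjusted p = 0.0366) and Lef1 (adjusted p = 0.0438) passed there.

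Of the other 7 members, 6 had a lower mean at 120 h and did not pass the test, and 81.8% of all genes tested had a lower mean too. Notum went from a mean of 11.5% to 5.26% (limma adjusted p = 0.0696) and Sp8 from 13.6% to 9.08% (limma adjusted p = 0.376). Lgr5 had the higher mean at 120 h, 0.474% against 0.184% (limma adjusted p = 0.484). The 6 members with a promoter region in all 6 lists could be compared by height over the median promoter of the list. Tcf7 had heights of 29.7, 17.6 and 15.5 at 96 h and 11.3, 7.20 and 7.73 at 120 h. On the log2 scale its height over the median promoter fell by 1.05 (SE 0.193, limma adjusted p = 0.0240), where 1.31% of 9939 genes were lower and 0.644% higher. Notum differed by -0.95 (SE 0.234), with a limma adjusted p of 0.0734 without and 0.0196 with the replicate block, under which 3.79% of genes were lower and 1.7% higher. At Axin2 this height differed by -0.20 (SE 0.185, limma adjusted p = 0.650), so no change of its summit was detected. Its lower coverage passed in the main fit, a call that was lost in 10 of 12 alternatives.

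The number of calls depended on single libraries, and each fit without one has fewer samples. By limma coverage 776 genes passed with all 6 libraries, and 0 passed without replicate 1 at 96 h (3288 at an unadjusted p under 0.05) or without replicate 2 at 120 h (2971 unadjusted). Without replicate 1 at 120 h 1 gene passed, and without the time course library at 120 h 106 did, with Sp5 the member among them. Without the time course library at 96 h 511 passed, with Sp5 and Lef1 among them, and without replicate 2 at 96 h 1111 passed, with Sp5, Lef1 and Notum among them. The Sp5 difference kept its size throughout, with falls by 7.99 to 8.81 points and limma adjusted p between 0.0213 and 0.0776. The Tcf7 height call was lost without any 1 of the numbered replicates (limma adjusted p of 0.0554 to 0.123), where 24 to 53 genes passed in place of 194. Its log2 difference was then -0.92 to -1.16, against -1.05 with all libraries. Without centring on the median promoter the difference was -1.23 (limma adjusted p = 0.123). With lists cut to equal length no member passed the coverage test, and Sp5 fell by 7.85 points (limma adjusted p = 0.0639).

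Among 76 other pathway genes tested for coverage by limma, 6 were lower at 120 h and 0 higher, where 3.91% and 0.605% of all genes were. Of 37 tested by height, 1 was lower and 1 higher, where 1.31% and 0.644% of all genes were.

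PolII had no list before 72 h, so it follows the genes from the end of the pulse. It was at 8 member promoters at 72 h, as at 56.4% of all genes, and at 7 of them, all but Notum, in each of the 8 lists, as 45.1% of all genes were. Sp5 had 260, 192, 122, 68, 35, 12, 28 and 22 fragments at its promoter from 72 to 168 h. Its height over the median PolII promoter went from 3.33 at 72 h and 4.36 at 84 h to 0.306 at 168 h, that is from above 95.7% of called promoters to above 8.10%. Dkk1 had 88, 66, 52, 38, 23, 12, 31 and 21 fragments. Its height went from 1.13 of the median promoter at 72 h to 0.292 at 168 h, after 1.58 at 96 h. Tcf7 had 73, 40, 19, 17, 28, 14, 28 and 19 fragments, and its height went from 0.936 to 0.264 of the median promoter. By this measure all 3 were highest at or before 96 h and lowest at 168 h. Axin2 had 113, 59, 48, 40, 50, 28, 54 and 56 fragments and went from 1.45 to 0.778 of the median. Nkd1 and Lef1 stayed above the median promoter in all 8 lists, with 149 and 76 fragments at 168 h.

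**Figure D4:**
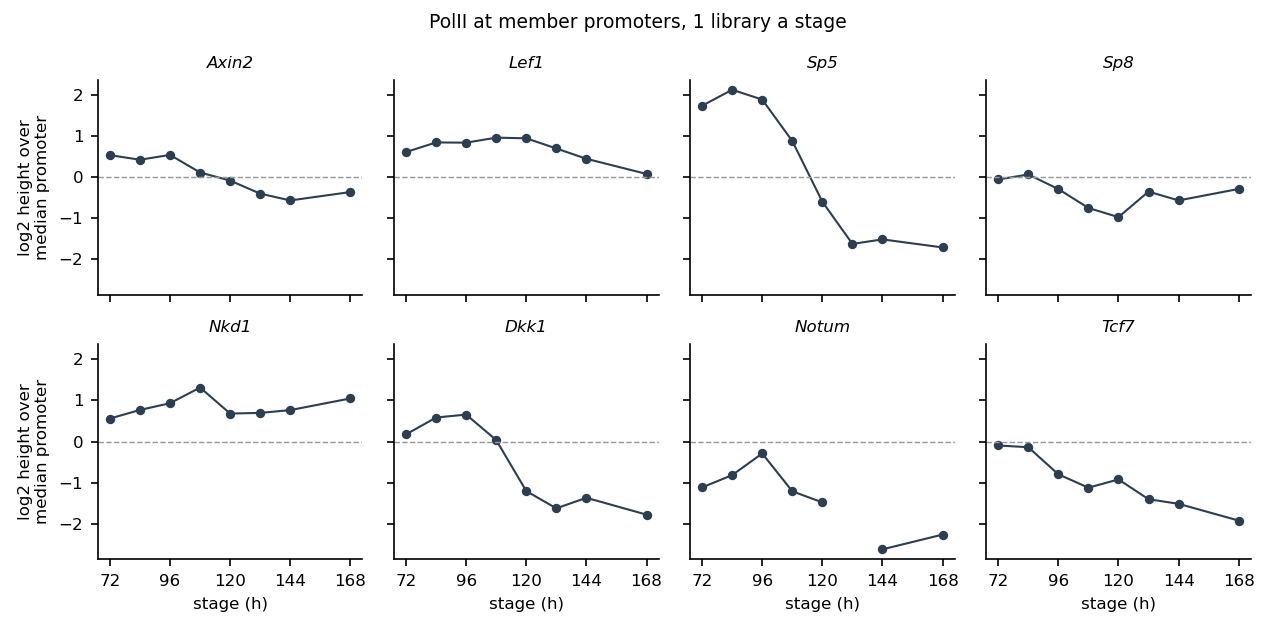
PolII promoter height over the median called promoter of the same list (log2) against stage (h) for the 8 members with PolII at 72 h, 1 library per stage. The dashed line at 0 marks the median promoter, and a gap in the line marks a list with no promoter region. Sp5 runs from 1.74 at 72 h to -1.71 at 168 h and Dkk1 from 0.17 to -1.78, while Nkd1 and Lef1 stay above 0.

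Against stage, PolII height fell for Tcf7 (Spearman's rho = -0.976, exact permutation p = 0.000397, adjusted p = 0.0499 over 9803 genes) with 1 of 7 members tested passing, where 0.265% of genes fell and 0.53% rose. By Pearson's r the value for Tcf7 was -0.963 (exact permutation, adjusted p = 0.0632), and -0.916 without the 72 and 168 h stages. By r, 0.0306% of genes were lower. After any 1 stage was left out, rho for Tcf7 lay between -1.0 and -0.964. With 7 stages the exact permutation p cannot go below 0.000397, and even at a rho of -1.0 the adjusted p was 0.0628 and 0.0846, so the loss of all calls there says nothing about stability. This test was added after the data were seen. Sp5 (rho = -0.905, r = -0.921, adjusted p = 0.0977 and 0.0729), Dkk1 (rho = -0.881, r = -0.885, adjusted p = 0.116 and 0.0962) and Axin2 (rho = -0.857, r = -0.904, adjusted p = 0.138 and 0.0917) did not pass in these exact permutation tests. The median rho was -0.857 over the 7 members and -0.0476 over all genes. Genes share libraries and are not independent, and these lists had 1 library per stage.

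H3K27ac against stage gave 0 members by rho, where 4.03% of 18156 genes were lower with stage and 0.127% higher in exact permutation tests, and no gene passed without the 48 h stage. Tcf7 came nearest (rho = -0.867, exact permutation p = 0.00451, adjusted p = 0.0558). By Pearson's r Tcf7 passed (r = -0.840, exact permutation, adjusted p = 0.0477, and r = -0.734 without the 48 and 168 h stages), where 11.7% of genes were lower. Of 6 members with a promoter region at all 9 stages, 0 passed by rho of H3K27ac height, where 3.42% of genes were lower and 1.12% higher. Tcf7 passed by r of height (r = -0.861, rho = -0.800, exact permutation, adjusted p = 0.0457 and 0.102, and r = -0.894 without the 48 and 168 h stages), where 6.43% of genes were lower. PolII and RAD21 coverage gave 0 members and 0 genes in the same exact permutation test after adjustment, with 762 and 2076 genes at an unadjusted p under 0.05. The PolII coverage trend furthest from 0 among the members was that of Dkk1 (rho = -0.976, r = -0.853, exact permutation, adjusted p = 0.433 and 0.806).

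The members without a PolII promoter region at 72 h were Rspo3 and Lgr5. Rspo3 had no PolII promoter region at 72 h, 22 fragments at 84 h, 41 at 96 h and none at 132 h. Lgr5 had PolII at its promoter only at 144 h (15 fragments) and 168 h (13 fragments). For Lgr5, pSer2PolII had no region in any of the 5 lists.

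Elongating polymerase, marked by pSer2PolII, gathers past the ends of transcribed genes. At Axin2 its highest summit lay 476 to 574 bases past the gene's end in all 5 lists, with 228 fragments at 72 h, 259 at 96 h and 61 at 120 h. Rspo3 had its highest summit 3580 to 4168 bases past the end, with 20 fragments at 72 h, 328 at 96 h and 47 at 120 h. For Tcf7 the distance was 1337 to 1797 bases, with 91, 84 and 50 fragments. Sp5 had its highest summit 1976 bases past the end at 72 h (206 fragments). The highest Sp5 summit lay near the start at 96 h (99 fragments), and 1239 bases past the end at 120 h (19 fragments). Axin2 thus had a region in all 5 lists, Rspo3 in 4 and Sp5 in 3. The 84 h list was short and the pooled 144 h list, made from 3 samples, had a high background.

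NIPBL lists at 72 and 84 h held few regions, with 18.6% and 13.1% of genes having a promoter region there. Axin2, Lef1 and Sp5 had one even so, and in all 8 lists, as 8.16% of genes did. The Axin2 summit held 24, 28, 50, 80, 84, 76, 204 and 161 fragments from 72 to 168 h, and the Sp5 summit 54, 102, 133, 96, 68, 51, 92 and 82. For the height over the median promoter against stage, the 3 members tested were Axin2 (rho = 0.786, r = 0.821, adjusted p = 0.132 and 0.109), Lef1 (rho = 0.476, r = 0.3498, adjusted p = 0.382 and 0.536) and Sp5 (rho = -0.857, r = -0.888, adjusted p = 0.0954 and 0.0759), and none passed the exact permutation test, in which 0.114% of 1754 genes were higher. Sp8 had a NIPBL promoter region from 96 h on, with 71 fragments at 96 h and 216 at 144 h. By coverage 0 of the 10 members passed by rho, where 4.49% of genes rose. All 10 had a rho above 0, but so did most genes, with 1450 of 17139 below 0 and a median rho of 0.683 over all genes against 0.699 over the members. With lists cut to equal length rho was below 0 for Rspo3 (-0.343), Lef1 (-0.412), Nkd1 (-0.234) and Sp8 (-0.0838). Tcf7 (r = 0.925, adjusted p = 0.0345) and Rspo3 (r = 0.833, adjusted p = 0.0455) passed by Pearson's r in exact permutation tests, where 14.5% of genes did, and r was 0.859 and 0.635 without the 72 and 168 h stages. Without the short lists at 72 and 84 h, 6 stages remain and the exact permutation p cannot go below 0.00278. Tcf7 then had a correlation with stage of 0.943 and Rspo3 of 0.714 (Spearman, adjusted p = 0.583 and 0.633), and no gene passed.

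H3K27me3, the Polycomb mark, lay in 8 of the 10 member windows in at least 1 list, and in those of 40.9% of all genes. It lay at 5 member promoters in at least 1 list (25.9% of all genes). Notum had a promoter region in all 6 lists, as 11.3% of genes did. Its height was 17.8 at 72 h, 29.6, 27.9 and 31.5 at 96 h, 59.9 at 120 h and 43.5 at 144 h. Axin2 and Tcf7 had no H3K27me3 region anywhere in their windows in any list. In the time course lists, bases in both marks lay in the windows of Notum, Sp8, Lef1 and Dkk1. Of the Notum H3K27me3 bases, 272 of 932 also lay in an H3K27ac region at 72 h and 975 of 1278 at 96 h. The numbers were 515 of 2220 at 120 h and 478 of 2113 at 144 h. At Sp8 they were 0 of 1209 at 72 h, 140 of 2260 at 96 h, 984 of 3907 at 120 h and 655 of 1688 at 144 h. Lef1 had 311 shared bases at 144 h and Dkk1 had 136 at 120 h. By 144 h, 99.4% of the 481 H3K27ac bases in the Notum window lay within H3K27me3 regions. Whether the same cells carried both marks was not tested.

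Sp5 and Sp8 carried H3K27me3 as well. The Sp5 window was covered over 4.59% at 72 h, 1.30, 0 and 0% at 96 h, 9.22% at 120 h and 6.67% at 144 h. Of the 4 stages measured for both marks, 96 h had the least H3K27me3 and the most H3K27ac at Sp5, and no base lay in both marks in the time course lists. The Sp8 window was covered over 4.61% at 72 h, 8.61, 12.7 and 12.3% at 96 h, 14.9% at 120 h and 6.43% at 144 h. Dkk1 had an H3K27me3 promoter region at 120 and 144 h, and Lgr5 at 120 h.

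**Figure D5:**
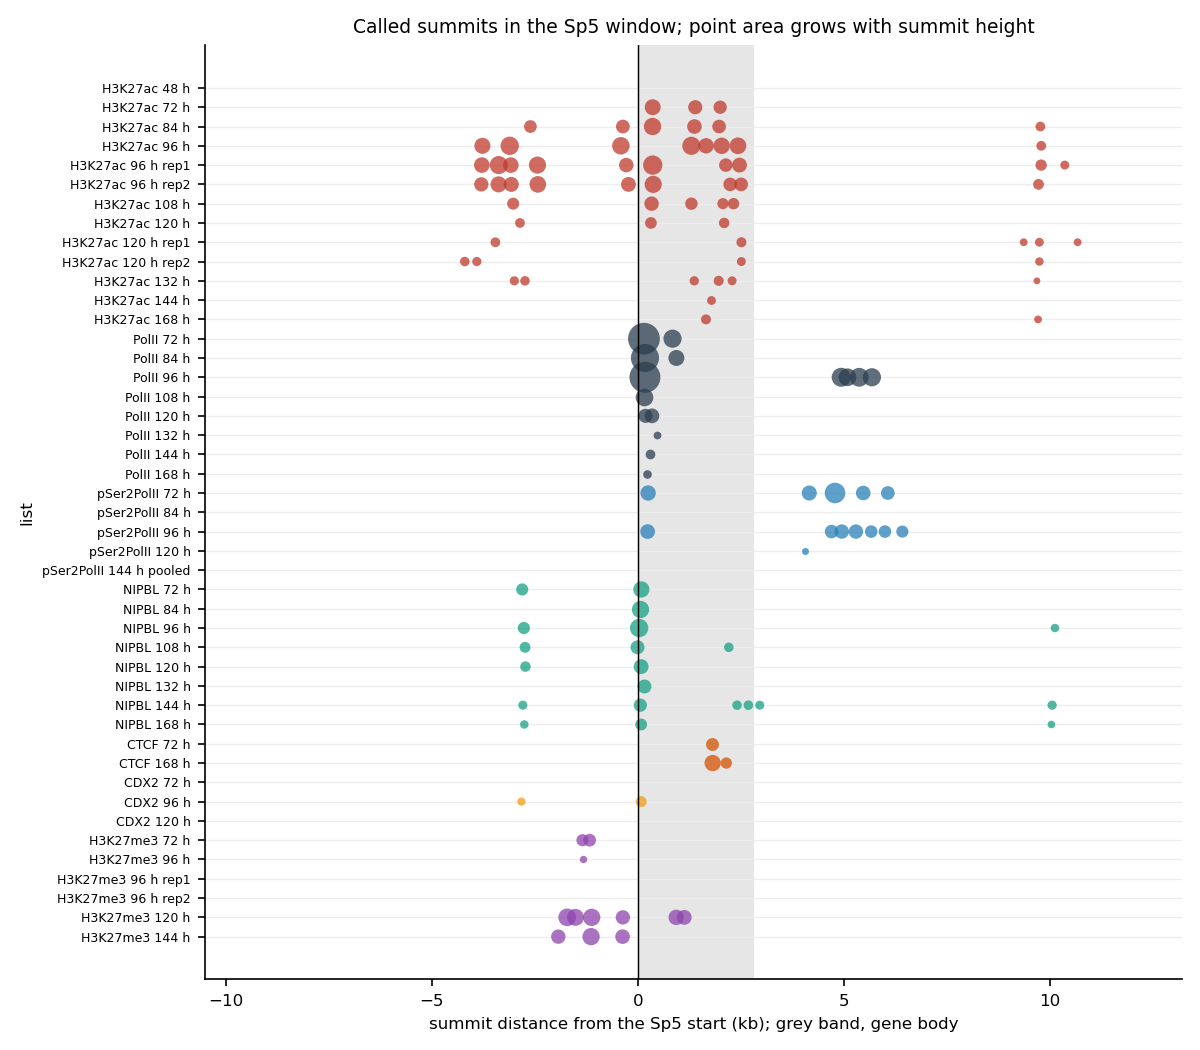
Summits of called regions in the Sp5 window by distance from the Sp5 start (kb), 1 line per list, with point area growing with summit height and the gene body in grey. The H3K27ac line at 48 h is empty, PolII at the start shrinks after 96 h, H3K27me3 lies mostly before the start at 120 and 144 h, and CDX2 has a summit 2.828 kb before the start, near those of NIPBL.

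Upstream of Sp5 lay an element that several assays shared, picked out after its values were seen. Within 500 bases of a point 2.828 kb before the start (chr2:70471595-70472595), summits were called in 7 of 13 H3K27ac lists, all between 84 and 132 h, in 6 of 8 NIPBL lists and in 7 of 16 RAD21 lists. CDX2 had a summit there at 96 h (17 fragments) and CTCF had none. At Dkk1 a point 5.113 kb before the start (chr19:30554278-30555278) held RAD21 in all 16 lists with 90 to 331 fragments. CTCF was there in both lists (57 and 143 fragments), and H3K27ac in 11 of 13, with 13 to 51 fragments.

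CDX2, a homeodomain factor of the posterior body, had 0 regions in the member windows at 72 h. At 96 h it had regions in 5 of them, Lef1, Sp5, Sp8, Nkd1 and Rspo3, and at 120 h in Sp8 alone. A CDX2 region in at least 1 list was found in the windows of 12.8% of all genes. By stage, 0.417% of all gene windows held one at 72 h, 11.2% at 96 h and 5.69% at 120 h. These lists held 147, 4501 and 2272 regions. Sp5 had its higher CDX2 summit 80 bases after the start (33 fragments). Sp8 had summits 992 and 6060 bases after its start (34 fragments each) at 96 h, and at nearly the same places, 890 and 6073 bases, at 120 h (16 and 27 fragments). Rspo3 had 1 summit 1190 bases after the start (23 fragments). The 300 bases around 3 of these summits are given from the mm10 genome, on the gene's strand, with matches to TTTATGG or TTTATTG on either strand in capitals, to show the letters under the summits.
Sp5, chr2:70474853-70475152, plus strand: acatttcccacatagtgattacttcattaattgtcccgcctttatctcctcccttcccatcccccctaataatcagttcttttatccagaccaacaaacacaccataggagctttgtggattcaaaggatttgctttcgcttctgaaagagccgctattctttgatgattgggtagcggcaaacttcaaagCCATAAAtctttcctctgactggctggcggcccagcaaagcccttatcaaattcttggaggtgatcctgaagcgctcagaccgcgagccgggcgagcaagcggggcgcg
Sp8, chr12:118852239-118852538, plus strand: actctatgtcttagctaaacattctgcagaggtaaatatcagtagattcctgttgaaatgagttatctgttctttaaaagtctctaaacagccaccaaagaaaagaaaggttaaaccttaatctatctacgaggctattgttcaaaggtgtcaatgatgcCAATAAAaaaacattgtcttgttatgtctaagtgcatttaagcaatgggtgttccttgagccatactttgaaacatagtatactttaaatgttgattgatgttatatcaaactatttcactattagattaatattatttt
Rspo3, chr10:29534527-29534826, minus strand: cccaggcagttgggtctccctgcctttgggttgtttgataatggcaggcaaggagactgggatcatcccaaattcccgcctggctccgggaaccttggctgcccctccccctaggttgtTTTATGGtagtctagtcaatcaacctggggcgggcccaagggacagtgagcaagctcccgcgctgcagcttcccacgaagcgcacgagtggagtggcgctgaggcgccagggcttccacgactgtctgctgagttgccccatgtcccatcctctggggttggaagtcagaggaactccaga
Such letters lay in 4 of the 8 CDX2 summit windows of the members at 96 h and in 1845 of all 4654 (39.6%), against 7.20% of listed promoters. The TCF/LEF letters lay in 2 of the 8, both at Sp5, and in 24.1% of all CDX2 summit windows at 96 h. In H3K27ac summit windows at 72 h the TCF/LEF letters lay in 6 of 68 within the member windows (8.82%) and in 10.1% of all, a share near the background.

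Cohesin is often held where CTCF is bound. Of 488 RAD21 regions in the member windows over the 16 lists, 324 overlapped a CTCF region (66.4%), and of all 806167 regions 78.2% did, a difference that was not tested. Members differed widely, from all 38 at Dkk1 and 91.2% at Rspo3 to 42.9% at Sp5, 44.3% at Sp8 and 46.1% at Lef1. RAD21 lay at the Nkd1 promoter in all 16 lists, as at 7.84% of genes, and at the Rspo3 promoter in none, as at 38% of genes. Axin2 and Dkk1 had it in 14 lists each. The member windows held 25 CTCF sites called at both 72 and 168 h, and at least 1 in each window. Of all gene windows, 78.3% held a CTCF region at 72 h and 76.3% at 168 h.

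The mean H3K27ac coverage of the 10 members was 3.35% before the pulse, 7.52% at 96 h, its highest, and 2.46% at 144 h, its lowest. Their median at 48, 96 and 144 h was 2.91, 5.05 and 1.71% in the time course. The median over all genes was 2.93, 2.37 and 1.22% in the same lists. The 144 h list was the shortest of H3K27ac, with 24002 regions, and the median over all genes was lowest there too. Single members differed, with Sp5 and Rspo3 lowest at 48 h, at 0%. The part of list length was not tested. Outside the pathway, the genes nearest to this mean over the 9 stages were Zfp839, Akap1 and Hic1, at Euclidean distances of 2.14, 2.23 and 2.28 percentage points over 9 libraries.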

How the data were processed

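The authors sequenced paired-end libraries from ChIP (H3K27ac, H3K27me3, pSer2PolII) or Tn5-based ChIPmentation (PolII, NIPBL, RAD21, CTCF), trimmed reads with cutadapt 1.16, mapped them to mm10 with Bowtie2 2.3.4.1, filtered them with SAMtools 1.8 and called regions with MACS2 2.1.1.20160309, without an input control. The deposited lists give a score, a fold enrichment (ratio over the local background) and −log10 p and −log10 q values per summit. pSer2PolII at 144 h was called by the authors on 3 pooled samples. Of 80 lists, the 61 from wt samples were used and 19 from mutants were not.

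Fragments at a summit were recovered here from fold enrichment and −log10 p, which gave whole numbers within 0.001 for at least 98.9% of summits per list, and height is fragments over the lowest local background of the list. Windows, promoters and overlaps (at least 1 base) used GENCODE vM21. Comparisons of 96 and 120 h used limma 3.58.1 in R 4.3.3 with Benjamini-Hochberg adjustment at 0.05, and trends used exact permutation tests over stages, two-sided (smallest p 4.96e-05 for 8 stages and 5.51e-06 for 9). Scripts ran in Python 3.11.15 (numpy 2.4.6, pandas 2.3.3, scipy 1.17.1, pysam 0.24.0) and were tested on simulated data. Same-numbered H3K27ac replicates at 96 and 120 h deviated together (correlations 0.381, 0.164 and 0.310 for coverage, and 0.472, 0.140 and 0.229 for height), with the unnumbered time course libraries taken as the third pair. The main limma fits did not use this pairing, and the fits with the replicate block did. All 10 members, the lists of other pathway genes and the markers were chosen with earlier results of these data known. The members were all described, up to 5 pathway genes with the largest H3K27ac gain were eligible to be named, and likeness was taken over the 9 time course stages. Trends of promoter height, trends without named stages and both upstream elements were chosen after seeing the data.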

Additional observations from a re-analysis of the deposited data

How the results depend on the processing

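The lists hold no read totals, list length was the measure of depth used here, and most stages had 1 library per assay. Across the alternatives, 61 summary counts stayed near the reported one and 42 moved, and of the values for single genes 231 kept direction and call, 32 lost a call, 6 gained one and 8 turned direction. For moved values the cause was not tested, except where fewer libraries or stages entered.

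H3K27ac at 48 and 72 h gave 5 members covered at least 2-fold more, in place of 3, with lists cut to equal length or with 0.5 percentage points added. With −log10 q of at least 5, RAD21 at 72 h lost 0 members in replicate 1 and 0 in replicate 2, and 1 member was at least 2-fold higher in replicate 2. With equal list lengths replicate 2 gained 4 members, lost 0 and had 1 that was 2-fold higher.

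The H3K27ac trend, passed by 755 genes, was passed by 17 with −log10 q of at least 5, 17 with equal list lengths, 479 with windows of 5 kb, 1868 with 20 kb and 0 without 48 h. The NIPBL trend, passed by 769, was passed by 0 with −log10 q of at least 5, 0 with equal list lengths, 479 with 20 kb and 0 without 72 and 84 h, where 6 stages allow no exact p below 0.00278. With equal list lengths the NIPBL rho turned negative for Lef1 (-0.412), Sp8 (-0.0838), Nkd1 (-0.234) and Rspo3 (-0.343). Height trends were passed by 15 genes in place of 466 for H3K27ac without 48 h, by 0 in place of 2 for NIPBL without 72 and 84 h, and by 0 in place of 78 for PolII with any 1 stage left out. For PolII, 7 stages then allow no exact p below 0.000397 and a rho of -1.0 did not pass. Neither these PolII counts nor those of NIPBL with 6 stages bear on stability. Without 48 h the H3K27ac trends kept 8 stages, where the exact p can go down to 4.96e-05. With 8 stages 769 genes passed for NIPBL coverage and 78 for PolII height. No other stage was left out of the H3K27ac trends. The part of the 48 h stage and that of having fewer stages thus cannot be told apart.

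For H3K27ac coverage at 96 against 120 h, limma called 385 genes with −log10 q of at least 5, 115 with equal list lengths (no member), 423 with windows of 5 kb and 1469 with 20 kb, against 776, and between 0 and 1111 with 1 library left out. The replicate block gave 105 higher and 898 lower. Nkd1 turned to 0.34 points higher with windows of 5 kb, and Rspo3 ranged from -0.371 to 0.0387 points with 1 library left out. For height, limma called 546 genes with the replicate block and 34 without centring on the median promoter, against 194, and 24 to 228 with 1 library left out. Lef1 turned to -0.11 without centring. The replicate block changed the member calls named above for Axin2 and Notum and no other.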
